A study of Danio rerio with 6 samples.

Results

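The genes described here act in the unfolded protein response and the integrated stress response. They were chosen by name as 10 genes: the transcription factor genes *atf4a*, *atf4b*, *atf3*, *ddit3* and *xbp1*, the endoplasmic reticulum (ER) chaperone genes *hspa5* and *hsp90b1*, and *chac1*, *trib3* and *asns*, which ATF4 is known to induce. Of these, 9 had a row in the deposited table of 21769 genes and all 9 were tested, since no filter on low values was applied. *chac1* was not analysed here. Expression was measured by RNA-seq of total RNA from AB strain zebrafish embryos at 36 hours post fertilization (hpf). There were 3 libraries of *dhx38*-/- embryos and 3 libraries of WT siblings. *dhx38*, the mutated gene, codes for an ATPase of the spliceosome. Its allele is not described in the labels, which also do not say whether embryos were pooled or how many clutches were used, so p-values measure the spread between these libraries.

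When unfolded proteins accumulate in the ER, the sensors IRE1, PERK and ATF6 are activated. IRE1 removes an intron from *xbp1* mRNA, PERK phosphorylates the translation factor eIF2, and ATF6 is cleaved to release a transcription factor. Phosphorylation of eIF2, by PERK or by kinases that sense amino acid shortage, haem shortage or viral RNA, slows translation in general but favours translation of *ATF4* mRNA. ATF4 protein then induces genes of amino acid supply and of cell death or recovery. Most of this regulation acts on splicing, phosphorylation and translation, so gene-level mRNA values show only part of it, and the IRE1-dependent splicing of *xbp1* was not measured here.

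The libraries held 19.5 to 37.7 M reads, recovered from the deposited values, and 3 reads equalled 0.0776 to 0.164 normalized CPM, the deposited unit of reads scaled to library size. The targeted gene, *dhx38*, was at 57.2, 90.4 and 53.1 normalized CPM in the mutant libraries, against 33.8, 33.8 and 27.3 in the sibling libraries. The direction of this transcript does not check the genotype, since the kind of mutation is not stated. The source is labelled tail tissue and, in the protocol, trunk. All 8 markers of tail, trunk and muscle were detected. Of these, the groups overlapped in 6, while the muscle gene *acta1b* (1041 to 1588 normalized CPM in mutants, 1826 to 2653 in siblings) and the posterior gene *hoxa13b* (1.48 to 1.93 in mutants, 3.05 to 3.79 in siblings) were lower in every mutant library. Markers of head, eye and lens were also present, with 6 of 6 detected and summed levels of 229 to 595 in mutants and 473 to 697 in siblings. Most of this sum was the lens gene *crybb1*, at 121 to 468 in mutants and 362 to 546 in siblings. The log2 fold change was negative in 5 of the 6 (list median -0.45), though near 0 in *emx3* (-0.03), and positive in *rx1* (0.37). Only in *foxg1a* did the groups not overlap, at 15.6 to 22.5 in mutants and 27.4 to 31.35 in siblings. Of 5 measured markers of liver and exocrine pancreas, 4 had a negative log2 fold change (list median -0.18). Of these, *prss1* was lower in every mutant library, at 0.33 to 0.38 against 0.42 to 0.62 in siblings. These values were low, where 3 reads equalled 0.0776 to 0.164. The remaining marker, *cp*, was higher in every mutant library, by a narrow margin, at 35.4 to 98.7 against 12.8 to 34.4 in siblings. Over all genes, the groups did not overlap in 13.8% with the mutants lower and in 13.3% with the mutants higher. In all genes, 50.8% had a negative log2 fold change. In the limma fit described below, adjusted p was 0.0827 for *acta1b*, 0.0501 for *hoxa13b*, 0.0820 for *foxg1a*, 0.473 for *prss1* and 0.263 for *cp*. None of these passed the threshold of 0.05. With the replicate block, all but *prss1* passed it. In bulk tissue, fewer cells of a type and less RNA per cell cannot be told apart. On the first principal component, mutant replicate 1 stood at -1.81, between the siblings at -33.8 to -18.3 and mutant replicates 2 and 3 at 42.7 and 39.1.

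Of the 9 members, 0 rose and 0 fell past an adjusted p of 0.05 in the mutants (limma on log2 of normalized CPM + 1, Benjamini-Hochberg over all 21769 genes). At an unadjusted p under 0.05, 0 members were higher and 3 were lower, where 10.2% of all genes were higher and 10.7% lower. The count test of edgeR called 0 members higher and 1 lower, against 1.98% of all genes higher and 0.367% lower. At the adjusted threshold the limma fit called 1.41% of all genes higher and 0.285% lower. With the replicate number as a block, 0 members rose and 1, *trib3*, fell, where 6.85% of all genes were called higher and 6.87% lower. In 4 of the 9 members, *trib3*, *atf4a*, *asns* and *hsp90b1*, the 3 mutant libraries all lay below the 3 sibling libraries. Such a separation was found in 13.8% of all genes with the mutants lower and in 13.3% with the mutants higher, which was the case in 0 members. The median log2 fold change was -0.27 over the 9 members and -0.01 over all genes.

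**Figure D1:**
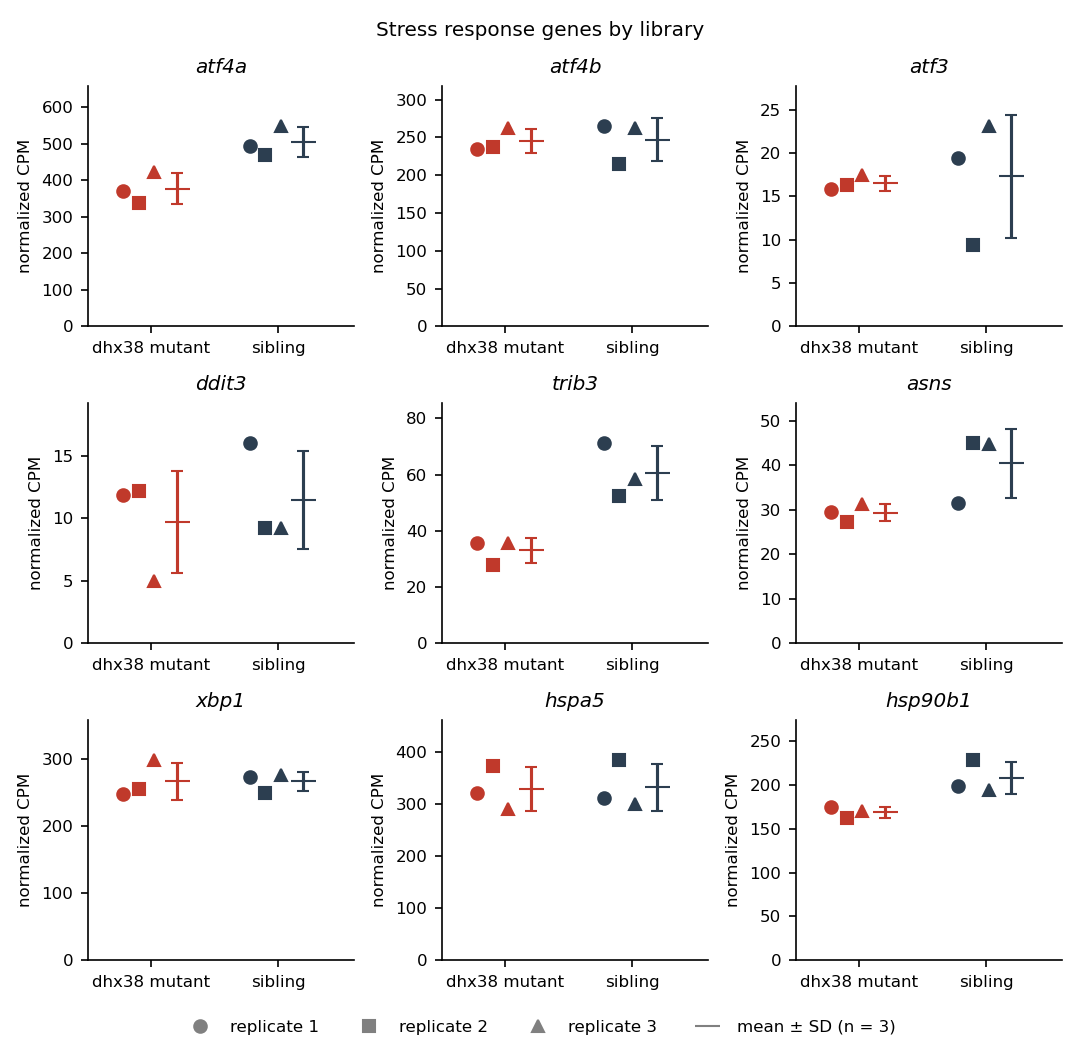
Normalized CPM of the 9 measured genes in each library (y axes from 0; a panel per gene), with dhx38 mutants in red and siblings in dark blue; symbols mark the replicate number and bars the mean ± SD of 3 libraries. In *trib3*, *atf4a*, *asns* and *hsp90b1* all mutant points lie below all sibling points, whereas in the other 5 panels the groups overlap.

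*atf4a* and *atf4b* are the zebrafish paralogs of *ATF4*, the central transcription factor gene of the integrated stress response. *atf4a* (ENSDARG00000111939, chromosome 6, plus strand) was at 371, 337 and 422 normalized CPM in mutant replicates 1, 2 and 3, against 495, 469 and 549 in sibling replicates 1, 2 and 3. Every mutant library lay below every sibling library, and the mutant mean was 74.7% of the sibling mean. The log2 fold change was -0.42 (SE 0.15, 95% interval -0.76 to -0.08), which did not pass (limma adjusted p = 0.161, and 0.0574 with the replicate block). With edgeR its adjusted p was 0.145, and 0.0201 once the replicate block was added.

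*atf4b* (ENSDARG00000038141, chromosome 3, plus strand) was at 235, 238 and 263 normalized CPM in mutants, against 265, 214 and 262 in siblings. The groups overlapped almost fully, and the log2 fold change was -0.01 with a 95% interval of -0.34 to 0.33 (limma adjusted p = 0.987). Within each library, the ratio of *atf4a* to *atf4b* normalized CPM was 1.58, 1.42 and 1.60 in mutants, against 1.87, 2.19 and 2.09 in siblings. The ratio, chosen after the values of both genes were seen, was therefore lower in 3 of 3 mutant libraries than in any sibling library. On the log2 scale it averaged 0.62 ± 0.10 in mutants and 1.03 ± 0.12 in siblings (SD, n = 3 each), a difference of -0.42 (exact two-sided permutation p = 0.10, the smallest that 3 against 3 libraries allow). With this number of libraries the test cannot reach the threshold, and the separation had been seen when the ratio was chosen. The difference is nearly that of *atf4a* alone (log2 fold change -0.42), so it is no separate result.

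*trib3*, a pseudokinase gene that ATF4 and DDIT3 induce and whose product restrains ATF4, differed most among the members. *trib3* (ENSDARG00000016200, chromosome 11, minus strand) was at 35.8, 28.0 and 35.5 normalized CPM in mutant replicates 1, 2 and 3, against 71.2, 52.4 and 58.4 in sibling replicates 1, 2 and 3. The highest mutant value lay well below the lowest sibling value, and the mutant mean was 54.6% of the sibling mean. The log2 fold change of -0.85 (SE 0.17, 95% interval -1.25 to -0.46) narrowly missed the threshold (limma adjusted p = 0.0543). Blocking on the replicate number brought it past the threshold (limma adjusted p = 0.00694), as did edgeR (adjusted p = 0.0343). Once 0.1 replaced 1 as pseudocount, the blocked fit missed it (limma adjusted p = 0.0737). Leaving out a library gave an adjusted p of 0.0380, without mutant replicate 1, to 0.217, without mutant replicate 2.

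*asns*, the asparagine synthetase gene that ATF4 induces on amino acid shortage, was also lower in mutants. *asns* (ENSDARG00000016375, chromosome 19, minus strand) was at 29.5, 27.3 and 31.2 normalized CPM in mutant replicates 1, 2 and 3, against 31.4, 45.0 and 44.8 in sibling replicates 1, 2 and 3. Sibling replicate 1 was only just above the mutant libraries, so the separation of the groups was narrow. The log2 fold change was -0.43 (SE 0.17, 95% interval -0.83 to -0.03) and did not pass (limma adjusted p = 0.209, and 0.0894 with the replicate block).

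*ddit3* encodes CHOP, a transcription factor of the cell death branch of the response, and *atf3* a stress-induced transcription factor downstream of ATF4. *ddit3* (ENSDARG00000059836, chromosome 6, plus strand) was at 11.9, 12.2 and 4.97 normalized CPM in mutants, against 16.0, 9.21 and 9.19 in siblings. The lowest value was in mutant replicate 3 and the highest in sibling replicate 1, with the rest mixed. The log2 fold change of -0.27 had a 95% interval of -1.04 to 0.51, the widest of the 9 (limma adjusted p = 0.700). *atf3* (ENSDARG00000007823, chromosome 20, plus strand) was at 15.8, 16.3 and 17.5 normalized CPM in mutants, against 19.4, 9.43 and 23.1 in siblings. The mutant libraries were close together and lay inside the range of the siblings, with a log2 fold change of 0.02 (95% interval -0.64 to 0.68, limma adjusted p = 0.977). The interval of *ddit3* still holds a fall as large as the -0.85 of *trib3*, whereas that of *atf3* ends short of it.

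*xbp1* encodes the transcription factor that IRE1 activates by splicing, and *hspa5* encodes BiP, the ER chaperone that binds the sensors and is itself a standard target of the unfolded protein response. *xbp1* (ENSDARG00000035622, chromosome 5, minus strand) was at 247, 255 and 298 normalized CPM in mutants, against 274, 250 and 276 in siblings. *hspa5* (ENSDARG00000103846, chromosome 5, minus strand) was at 322, 374 and 292 normalized CPM in mutants, against 312, 385 and 300.2 in siblings. In both genes the libraries of the 2 groups were interleaved, and the *hspa5* values followed the replicate number, highest in replicate 2 and lowest in replicate 3 of both groups. The log2 fold change of *xbp1* was -0.002 (95% interval -0.33 to 0.32, limma adjusted p = 0.995) and that of *hspa5* -0.01 (95% interval -0.39 to 0.36, limma adjusted p = 0.977). Hatching gland cells, which secrete enzymes in bulk, are known for high *xbp1*. Their 6 markers, all detected, summed to 2184 to 3919 normalized CPM in mutants and 1951 to 2646 in siblings, and those of notochord to 1114 to 2230 in mutants and 623 to 2156 in siblings. Most of the first sum was *he1.1* and *he1.2*, and most of the second was *col2a1a*. Negative log2 fold changes were found in 2 of the 6 hatching gland markers, *klf17* and *cd63*, against 50.8% of all genes. In the 6 notochord markers there were 0. List medians were 0.37 for hatching gland and 0.25 for notochord. The part of these cells in the *xbp1* and *hspa5* values was not tested.

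*hsp90b1* encodes GRP94, an ER chaperone of the HSP90 family that is induced together with BiP under ER stress. *hsp90b1* (ENSDARG00000003570, chromosome 4, plus strand) was at 174, 162 and 169.9 normalized CPM in mutants, against 199, 228 and 194 in siblings. All mutant libraries lay below all sibling libraries, by a small margin. The log2 fold change was -0.29 (SE 0.13, 95% interval -0.60 to 0.02) and did not pass (limma adjusted p = 0.263, and 0.174 with the replicate block). In the RefSeq gene table, whose assembly is GRCz12tu, the span of *hspa5* meets those of 2 other genes and that of *hsp90b1* meets that of 1, and no strand setting of the counting is given in the sources used here. Only whole spans were compared and not exons, so whether any reads were shared with these genes cannot be told from these values.

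**Figure D2:**
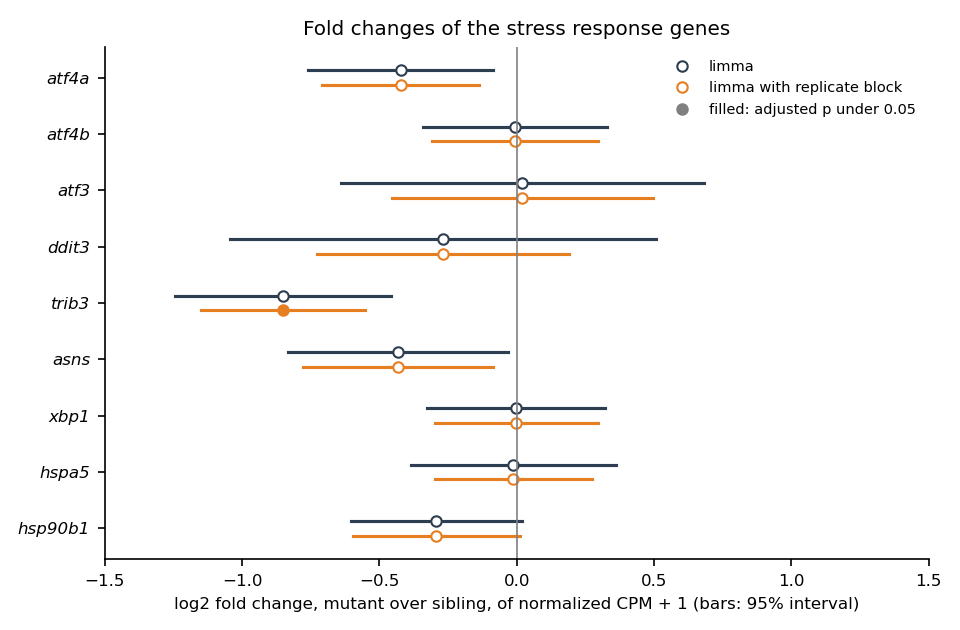
Log2 fold change of each measured gene, mutant over sibling, on normalized CPM + 1 (x axis), with its 95% interval as a bar, for the limma fit (dark blue) and the fit with the replicate block (orange); filled points have an adjusted p under 0.05. The single filled point is *trib3* with the block, at -0.85, and *atf4b*, *atf3*, *xbp1* and *hspa5* lie within 0.03 of 0.

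Libraries with the same replicate number varied together, so the difference within each same-number pair is also given, on log2 of normalized CPM + 1. *trib3* was lower in the mutant of each pair, by -0.97, -0.88 and -0.70 in pairs 1, 2 and 3. *atf4a* differed by -0.41, -0.47 and -0.38, the narrowest spread of a member whose groups did not overlap. *asns* differed by -0.09, -0.70 and -0.51, and *hsp90b1* by -0.19, -0.49 and -0.19. These 4 genes thus had the same sign in 3 of 3 pairs, which follows from the separation of their groups.

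The other members changed sign between pairs. *ddit3* differed by -0.40, 0.37 and -0.77 in pairs 1, 2 and 3, and *atf3* by -0.28, 0.73 and -0.38. Both were higher in the mutant of pair 2 alone, where sibling replicate 2 had the lowest *atf3* value of all 6 libraries. *atf4b* ranged from -0.17 to 0.15, *xbp1* from -0.15 to 0.11 and *hspa5* from -0.04 to 0.05.

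**Figure D3:**
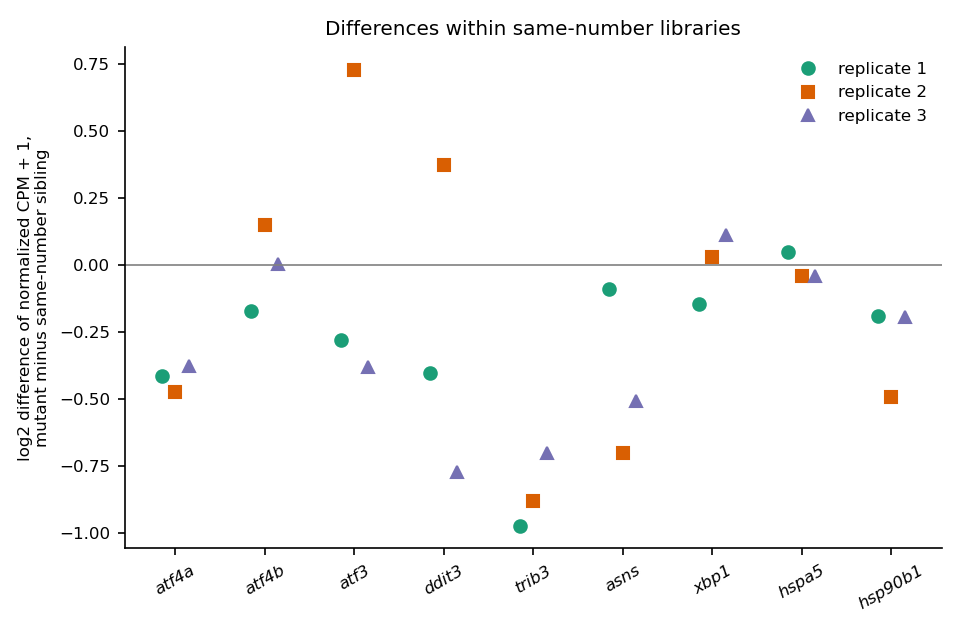
Log2 difference of normalized CPM + 1, mutant minus the sibling of the same replicate number (y axis), for the 9 measured genes (x axis); symbols and colours mark the replicate number. The 3 points of *trib3*, *atf4a*, *asns* and *hsp90b1* lie below 0, and those of *hspa5* lie within 0.05 of 0.

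The wider pathways were described with 8 lists named for their role, of which 135 genes other than the members were measured. In all, 2 rose and 1 fell (limma), where 1.41% of all genes rose and 0.285% fell. With the replicate block 11 rose and 8 fell, which is 14.1% called with the block against 13.7% over all genes. The 3 genes called by limma without the block were *batf3*, *afg3l2* and *phgdh*, and all 3 were also called with it. These calls were fragile: 0 of the 135 genes passed when any library except mutant replicate 1 was left out, and 7 rose and 2 fell when that library was left out. The blocked fit called 0 in either direction at a pseudocount of 0.1. Calls over all genes were not counted in these settings, so it cannot be said whether such losses were particular to the pathway genes. The median log2 fold change was 0.005 over the 135 genes. The pathway genes as a whole were thus called about as often as the average gene, in both directions. The lists are described in turn below. They were chosen with earlier results of these data known, so setting them against all genes is descriptive and tests no list.

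Among 25 measured ATF4 targets other than *asns*, *trib3* and *chac1*, 0 rose and 1 fell, and the groups did not overlap in 11 with the mutants lower and in 3 with the mutants higher (13.8% and 13.3% of all genes). The list median was -0.23, against -0.01 over all genes. The gene that fell was *phgdh*, of serine synthesis, at 104, 69.3 and 99.3 normalized CPM in mutants, against 182, 195 and 198 in siblings (log2 fold change -1.09, SE 0.18, limma adjusted p = 0.0317, and 0.0679 at a pseudocount of 0.1). At an unadjusted p under 0.05 (limma), 9 were lower and 2 higher, where 10.7% of all genes were lower and 10.2% higher. With the replicate block 5 fell and 2 rose, which is 28% called against 13.7% of all genes (6.87% lower and 6.85% higher). As the list was chosen with earlier results of these data known, this contrast is no test of the list. The other 4 that fell with the block, named after their values were seen, were the hormone gene *stc2a*, the amino acid transporter genes *slc7a3a* and *slc38a2*, and the proline synthesis gene *pycr1a*.

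The 2 targets that rose with the block, also named after their values were seen, were *ddit4* and *slc3a2a*. *ddit4*, an inhibitor of mTORC1 signalling that several stress pathways induce, was at 9.72, 12.6 and 15.1 normalized CPM in mutants, against 4.92, 5.38 and 8.36 in siblings (limma adjusted p = 0.0824, and 0.00580 with the block). *slc3a2a*, which encodes the heavy chain of amino acid transporters, was at 92.5, 99.8 and 113 in mutants, against 75.8, 72.4 and 63.0 in siblings (limma adjusted p = 0.106, and 0.0474 with the block). In both genes every mutant library lay above every sibling library. By contrast, *slc3a2b*, the paralog of *slc3a2a*, was lower in every mutant library (named after its values were seen). It was at 29.6, 30.5 and 33.1 in mutants, against 41.9, 33.5 and 39.8 in siblings (limma adjusted p = 0.289, and 0.174 with the block). ATF4 targets thus lay on both sides, with more of them lower.

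Of 8 other genes listed here as transcription factors of the integrated stress response, 1 rose and 0 fell (limma; list median 0.05). The shares over all genes were 1.41% higher and 0.285% lower. *batf3*, a basic leucine zipper factor gene, was at 1.34, 2.12 and 1.97 normalized CPM in mutants, against 0.37, 0.11 and 0.31 in siblings (log2 fold change 1.15, SE 0.17, limma adjusted p = 0.0216). Its level was low in both groups, in sibling replicate 2 close to the value of 3 reads. The size of its change depends on the pseudocount, with a log2 fold change of 2.45 at 0.1 (limma) and 2.79 by edgeR. With the replicate block *nupr1a* also rose (named after its values were seen), where 6.85% of all genes rose. By edgeR without the block 2 rose, *batf3* and *nupr1a* (edgeR adjusted p = 0.0255 and 0.0427), where 1.98% of all genes rose. *nupr1a*, a stress-induced chromatin protein gene, was at 36.5, 56.8 and 51.1 in mutants, against 23.95, 19.3 and 27.9 in siblings (limma adjusted p = 0.0626, and 0.0128 with the block). Its paralog *nupr1b*, also named after its values were seen, overlapped between groups. *nupr1b* was at 29.5 ± 4.47 in mutants and 29.7 ± 2.88 in siblings (SD, n = 3 each; limma adjusted p = 0.969). *atf5a* and *atf5b*, paralogs of the mitochondrial stress factor gene *ATF5*, overlapped between groups, *atf5a* at 9.85 ± 1.37 in mutants and 13.2 ± 4.69 in siblings and *atf5b* at 28.3 ± 4.22 in mutants and 34.5 ± 8.13 in siblings (SD, n = 3 each). *cebpb* and *cebpg* overlapped too (limma adjusted p = 0.828 and 0.394).

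Of 11 genes of the ER stress sensors and their processing, 0 rose and 0 fell (limma; 3 higher and 1 lower at an unadjusted p under 0.05, 0 by edgeR), and 1 rose with the replicate block. Over all genes, 10.2% were higher and 10.7% lower unadjusted, and 6.85% rose with the block. The gene with the smallest p, which also passed with the block, was *creb3l3b*, of the ATF6-like membrane factors, at 4.73, 6.80 and 7.65 normalized CPM in mutants, against 3.31, 3.46 and 3.63 in siblings (limma adjusted p = 0.0854, and 0.0185 with the block). *creb3l1*, of the same family, was next, at 27.3, 29.2 and 33.7 in mutants, against 20.9, 19.2 and 25.1 in siblings (limma adjusted p = 0.162). Of the 11 genes, 1 (9.09%) had a negative log2 fold change, against 50.8% of all genes, and the list median was 0.16. The groups did not overlap in 4 with the mutants higher and in 1 with the mutants lower (13.3% and 13.8% of all genes). The 3 sensor genes, named for their role, overlapped between groups. *ern1*, for IRE1, averaged 25.9 ± 4.84 in mutants and 23.9 ± 9.76 in siblings, *atf6* 39.5 ± 6.99 in mutants and 38.7 ± 3.88 in siblings, and *eif2ak3*, for PERK, 32.4 ± 6.20 in mutants and 26.4 ± 2.66 in siblings (SD, n = 3 each; limma adjusted p = 0.775, 0.959 and 0.398).

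Of 17 genes of eIF2, its kinases, its exchange factor eIF2B and its phosphatases, 0 rose and 0 fell (limma; 0 higher and 1 lower unadjusted, 0 by edgeR), and 1 fell with the replicate block. Over all genes, 10.7% were lower unadjusted and 6.87% fell with the block. The gene that fell with the block was *ppp1r15a*, whose product GADD34 is induced by the integrated stress response and reverses eIF2 phosphorylation. *ppp1r15a* was at 16.9, 15.8 and 14.4 normalized CPM in mutants, against 30.6, 23.0 and 20.3 in siblings (log2 fold change -0.60, limma adjusted p = 0.117, and 0.0251 with the block). All mutant libraries lay below all sibling libraries. *eif2b2*, of the exchange factor, had the next smallest p, at 44.2 ± 4.43 in mutants and 59.7 ± 11.8 in siblings (SD, n = 3 each; limma adjusted p = 0.248).

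Of 27 ER chaperones and foldases besides the members, 0 rose and 0 fell (limma; 0 higher and 4 lower unadjusted, 0 by edgeR), and 1 fell with the replicate block. Over all genes, 10.2% were higher and 10.7% lower unadjusted, and 6.87% fell with the block. In 20 of the 27 (74.1%) the log2 fold change was negative, against 50.8% of all genes, and the list median was -0.14. *cdnf*, a neurotrophic factor gene of the ER, was at 9.40, 7.37 and 7.32 normalized CPM in mutants, against 13.6, 14.2 and 10.5 in siblings (limma adjusted p = 0.104, and 0.0258 with the block). *sdf2l1*, an ER stress-induced cofactor of BiP, was at 24.8, 17.8 and 21.5 in mutants, against 29.97, 32.0 and 26.6 in siblings (limma adjusted p = 0.168, and 0.0773 with the block). The groups did not overlap in 6 of the 27 with the mutants lower, *cdnf* and *sdf2l1* among them, and in 1 with the mutants higher (13.8% and 13.3% of all genes).

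Of 21 genes of ER-associated degradation, which exports misfolded proteins to the proteasome, 0 rose and 0 fell (limma; 2 higher and 1 lower unadjusted, 0 by edgeR), and 1 fell with the replicate block. Over all genes, 10.2% were higher and 10.7% lower unadjusted, and 6.87% fell with the block. *derl3*, a derlin of the retrotranslocation channel, was at 3.74, 2.71 and 3.17 normalized CPM in mutants, against 5.47, 5.21 and 5.76 in siblings (limma adjusted p = 0.0723, and 0.0202 with the block). Its paralog *derl2* was at 20.7, 24.9 and 22.5 in mutants, against 17.1, 18.5 and 16.0 in siblings (limma adjusted p = 0.176). The third derlin gene, *derl1*, also lay higher in every mutant library, at 49.9 to 62.1 against 44.7 to 47.8 in siblings (named after its values were seen; limma adjusted p = 0.351). *derl2* and *derl1* passed neither with the block nor without it. Across the list of 21 the groups did not overlap in 5 with the mutants higher and in 1 with the mutants lower (13.3% and 13.8% of all genes). The log2 fold change was negative in 10, and the list median was 0.05.

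Of 14 genes of the ER translocon and signal peptidase, which bring new proteins into the ER, 0 rose and 0 fell (limma; 2 higher and 0 lower unadjusted, 0 by edgeR), and 1 rose with the replicate block. Over all genes, 10.2% were higher and 10.7% lower unadjusted, and 6.85% rose with the block. The log2 fold change was negative in 5 of the 14 (35.7%), against 50.8% of all genes, and the list median was 0.11. The groups did not overlap in 4 with the mutants higher and in 0 with the mutants lower (13.3% and 13.8% of all genes). *ssr3*, a subunit of the translocon-associated complex, was at 133, 200.0 and 253 normalized CPM in mutants, against 104, 100.3 and 125 in siblings (limma adjusted p = 0.122, and 0.0188 with the block). *srprb*, of the signal recognition particle receptor, was at 37.6, 51.1 and 46.0 in mutants, against 31.6, 34.4 and 33.8 in siblings (limma adjusted p = 0.184, and 0.0716 with the block).

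Of 12 genes of the mitochondrial stress relay and mitochondrial chaperones and proteases, 1 rose and 0 fell, where 1.41% of all genes rose, and 5 rose with the replicate block, where 6.85% of all genes did. The list median was 0.35, against -0.01 over all genes. At an unadjusted p under 0.05 (limma), 5 were higher and 0 lower, where 10.2% of all genes were higher and 10.7% lower. The groups did not overlap in 5 with the mutants higher and in 0 with the mutants lower (13.3% and 13.8% of all genes). Of the 12, 2 (16.7%) had a negative log2 fold change, against 50.8% of all genes. These contrasts are no test of the list, which was chosen with earlier results of these data known. *afg3l2*, a subunit of the matrix-facing protease of the inner membrane, was at 49.4, 80.2 and 62.8 normalized CPM in mutants, against 31.0, 29.5 and 28.1 in siblings (log2 fold change 1.07, SE 0.19, limma adjusted p = 0.0373). At a pseudocount of 0.1 its adjusted p was 0.0773 (limma). The other 4 that rose with the block, named after their values were seen, were the protease gene *yme1l1b* and the chaperone genes *trap1*, *hspe1* and *hspa9*. By edgeR without the block 3 rose and 0 fell, where 1.98% of all genes rose. They were *afg3l2*, *yme1l1b* and *trap1* (edgeR adjusted p = 0.0218, 0.0363 and 0.0413). *trap1* was at 113, 114 and 107 in mutants, against 77.8, 72.5 and 75.1 in siblings (limma adjusted p = 0.0692, and 0.0246 with the block). *dele1*, which relays mitochondrial stress to an eIF2 kinase, overlapped between groups, at 24.5 ± 7.58 in mutants and 17.6 ± 3.80 in siblings (SD, n = 3 each).

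**Figure D4:**
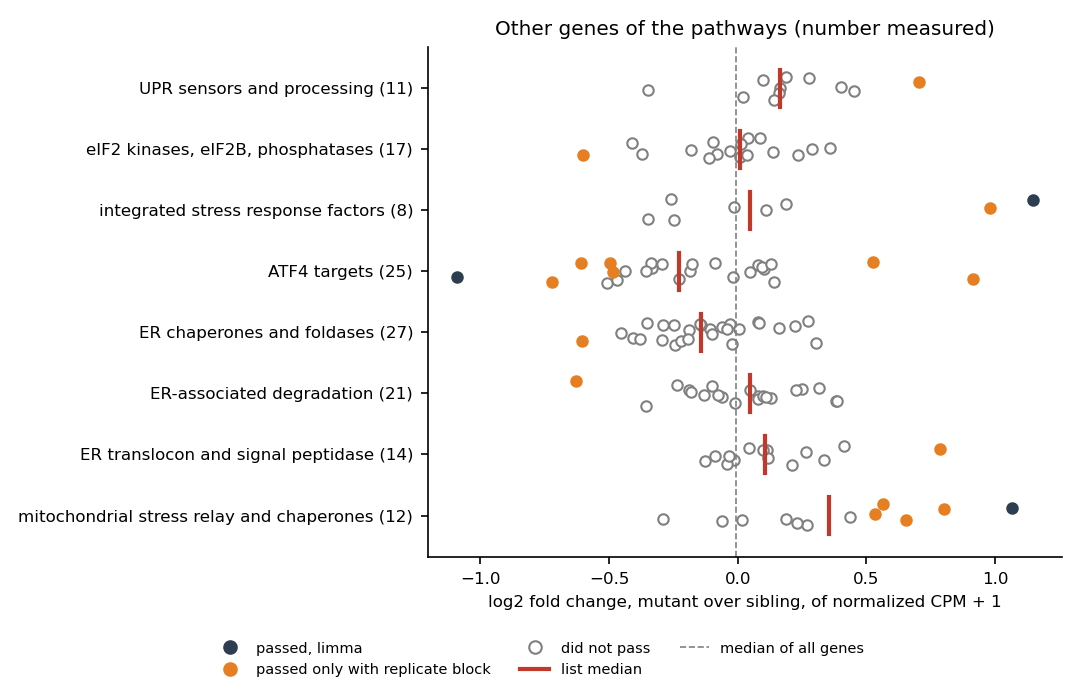
Log2 fold change, mutant over sibling, on normalized CPM + 1 (x axis) of the other measured genes of the pathways, a row per list with the number measured; points are genes, coloured by whether they passed with limma, only with the replicate block, or neither, and red bars are list medians. The median of the ATF4 targets lies at -0.23 and that of the mitochondrial list at 0.35, either side of the median of all genes at -0.01.

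Among 15185 genes with a mean of at least 1 normalized CPM and a symbol that is no placeholder, *metap1d*, *znf1156* and *fancf* were closest to *trib3* in their pattern over the 6 libraries. They code for a mitochondrial methionine aminopeptidase, a zinc finger protein and a Fanconi anaemia protein. Likeness was measured as the root mean square difference of log2 values centred on the sibling mean, and was 0.080 for *metap1d*, 0.098 for *znf1156* and 0.107 for *fancf*. *metap1d* was at 2.83, 1.68 and 2.46 normalized CPM in mutant replicates 1, 2 and 3, against 5.81, 4.21 and 5.35 in sibling replicates 1, 2 and 3. As in *trib3*, replicate 2 was the lowest library of each group, which is the kind of likeness the choice selects for. The added 1 weighs more at the low level of *metap1d* than at that of *trib3*, so likeness on this scale is not equality of ratios.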

How the data were processed

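Trizol extraction preceded Illumina HiSeq sequencing, per the labels' protocols. The authors deposited a normalized signal per gene and library, called normalized CPM per the file headers. Tools listed in the submitters' processing notes are edgeR, featureCounts, STAR and fastp, and the listed build is GRCz11. What each tool did, the strand setting and any gene filter are not stated there. A table of 956 of the genes with equal values held 0 members and was not used. Values were whole multiples of 1 read in at least 99.99% of genes per library, within 0.0055 normalized CPM, which is up to 0.213 of a read. The replicate 3 libraries, at 19.5 and 20.05 M reads, were the shallower. Counts of a few reads carry sampling error that the values do not show.

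All 21769 genes were tested without a filter, on the scale log2(value + 1), by a linear model per gene (limma 3.58.1, run in R 4.3.3). P-values were adjusted by Benjamini-Hochberg, with a threshold of 0.05. Recovered reads were tested with edgeR 4.0.16 (quasi-likelihood, TMM, filterByExpr), which called 431 genes higher and 80 lower, and the fits were tested on simulated data. Groups and replicate numbers come from the titles. Mutant and sibling libraries of one number deviated from their group means together (r across 18506 genes of 0.46, 0.45 and 0.59 for numbers 1, 2 and 3, above the bound of 0.1), so the numbers were taken to pair the libraries. The highest r between libraries of different numbers, 0.152, was also above that bound, though below each same-number r. Whether a number marks a clutch or a sequencing run is not stated. The design was written without the block, so the main limma fit does not take this pairing into account. The block is an alternative.

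The members and lists were chosen with earlier results of these data known. Named genes are the members, up to 4 called genes of each list and direction by smallest p, or the 2 with the smallest p where 0 were called, and 3 genes closest to the member with the smallest p. Genes outside this rule are named for their role, as markers of tissues or cell types, as paralogs of named genes, or as calls of the blocked fit. The calls of the blocked fit, and the paralogs *derl1*, *slc3a2b* and *nupr1b*, are said to be named after their values were seen. Of a symbol with several gene IDs, the highest was used.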

Additional observations from a re-analysis of the deposited data

How the results depend on the processing

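The count of members higher in mutants stayed at 0 in the alternatives run. The count lower, 0 in the report, was 1 with a variance trend, 1 with the replicate block, 1 with edgeR, 2 with edgeR and the block, and 0 to 1 when a library was left out. The 1 was *trib3* throughout, and *atf4a* was the other of the 2. Of the wider pathways, the 2 genes that rose became 0 at an adjusted p under 0.01, 1 with a pseudocount of 0.1, 5 with a variance trend, 11 with the block, 0 with the block and that pseudocount, 5 with edgeR, 15 with edgeR and the block, and 0 to 7 when a library was left out (7 without mutant replicate 1, 0 without any other). The 1 that fell became 0, 0, 1, 8, 0, 1 and 13 in the same order, and 0 to 2 when a library was left out (2 without mutant replicate 1, 0 without any other). Over all 21769 genes, limma called 308 higher and 62 lower, and 1491 higher and 1495 lower with the block. The edgeR test called 431 higher and 80 lower, and 1883 higher and 1782 lower with the block. Calls over all genes were not counted for the other alternatives. The cause of these changes was not tested. In the limma fit the replicate block changed no member's call but that of *trib3*, and in edgeR none but that of *atf4a*, whose adjusted p was 0.145 without it and 0.0201 with it.

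The log2 fold changes of members near 0 changed sign. Centring gave 0.013 for *atf4b*, 0.017 for *xbp1* and 0.0075 for *hspa5*, and edgeR gave -0.063 for *atf3* and 0.00091 for *xbp1*. Leaving out a library gave -0.106 to 0.047 for *atf4b*, -0.342 to 0.262 for *atf3*, -0.465 to 0.107 for *ddit3*, -0.085 to 0.050 for *xbp1* and -0.107 to 0.098 for *hspa5*. None of these passed, with adjusted p of at least 0.428. Depth limits *batf3* most among the named genes of the pathways, since 3 reads equal 0.0776 to 0.164 normalized CPM and its sibling values are 0.11 to 0.37. The marker *prss1* was also low in all 6 libraries, at 0.33 to 0.62.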
